A study of Lactuca sativa with 32 samples.

Results

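Leaf transcriptomes of red oak leaf lettuce (Lactuca sativa) grown behind a PTB7-Th:IEICO-4F filter were compared with those of plants grown behind a filter that contains the polymer FTAZ, with light intensity left as each filter set it. The comparison used 12 of the 32 samples of the study, chosen by their titles. They were 4 plants of HC-PTB7-Th:IEICO-4F against 8 plants of the FTAZ filters, 4 labelled HC-FTAZ:IT-M plus 4 labelled HC-FTAZ:PCBM. HC stands for height controlled, the experiment in which the lamps were not adjusted for intensity. Its counterpart is PC, or PAR controlled, where PAR is photosynthetically active radiation and intensity was adjusted. Every group held 4 individual plants. All plants stood under ceramic metal halide and incandescent lamps, 16 to a box and 2 to a pot, and pots were rotated every 2 days. Harvests were at 3 and at 5 weeks, and the labels do not say at which of them the leaf used for RNA was taken. The 4 plants under clear glass in HC, the 12 PC plants behind the same 3 filters and the 4 PC glass plants were kept out of the test and are used below to describe the genes it called.

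A semi-transparent organic photovoltaic filter is the light-absorbing layer of a solar cell, made of an electron donor blended with an electron acceptor. PTB7-Th is a low-bandgap donor polymer and IEICO-4F is a non-fullerene acceptor known for absorbing in the near infrared. FTAZ is a donor polymer with a wider gap, paired either with the non-fullerene acceptor IT-M or with the fullerene acceptor PCBM. Leaves read the colour and the amount of light through photoreceptors such as phytochromes and cryptochromes and through the state of photosynthesis itself, and both routes are known to change the transcription of many genes. The light that passed each filter is not analysed here. Spectrum and amount of light both went with the filter and cannot be told apart in these samples. The labels do not say how many boxes each filter had, so an effect of box cannot be told apart from the filter either.

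The 12 libraries were alike in depth, with 47289413 to 48274632 counted reads each. A gene with 3 reads had between 0.0621 and 0.0634 CPM (counts scaled to 1000000 per library), which is taken as the smallest level that this depth shows and which covers counting error only. Of 43717 genes listed, 29734 had a read in at least 1 of the 12 plants and 23628 passed the filter on low counts and were tested. Log2 CPM of plants of the same group had Pearson correlations of 0.9756 to 0.9887 across genes. The groups differed in spread: the biological coefficient of variation was 0.200 among the HC-PTB7-Th:IEICO-4F plants, 0.162 among HC-FTAZ:IT-M and 0.134 among HC-FTAZ:PCBM. The p-values below measure the spread between these plants. For each gene, edgeR joined that spread over the groups of a fit, so its p-values do not allow for a larger spread behind PTB7-Th:IEICO-4F. In whole leaf, a gene's level can fall through fewer cells of a type or through less RNA per cell, and these cannot be told apart.

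The 12 plants did not form 2 separate clouds. A principal component analysis of log2 CPM placed 21.7% of the variance on its first axis. There the PTB7-Th:IEICO-4F plants scored -18.71, -17.11, -58.11 and -6.39. The HC-FTAZ:IT-M plants scored -11.28, 40.88, 17.79 and 1.05, and the HC-FTAZ:PCBM plants 27.53, 13.1, -12 and 23.25. All 4 PTB7-Th:IEICO-4F plants thus lay on the negative side, but 1 plant of each FTAZ group lay there too, within their range. Replicate 3 of PTB7-Th:IEICO-4F stood farthest from all others on this axis. The second axis, with 13.61% of the variance, spread the PTB7-Th:IEICO-4F plants themselves from -51.73 to 22.49.

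**Figure D1:**
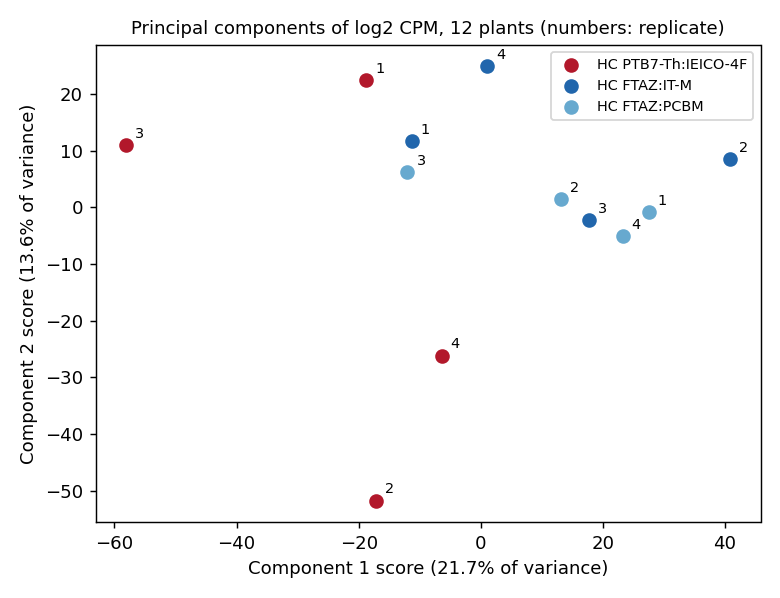
Scores of the 12 plants on components 1 (x axis, 21.7% of variance) and 2 (y axis, 13.61%) of log2 CPM, each point 1 plant with its replicate number. PTB7-Th:IEICO-4F plants (red) score between -58.11 and -6.39 on component 1 and overlap with 1 plant of each FTAZ group (blue).

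Which genes separate the PTB7-Th:IEICO-4F plants from both FTAZ groups was tested gene by gene with edgeR. A total of 1955 of 23628 genes (8.27%) passed an adjusted p of 0.05, of which 895 were higher (3.79% of tested) and 1060 lower (4.49%) behind PTB7-Th:IEICO-4F. Most called genes moved little: the size of the log2 fold change had a median of 0.376 and quartiles of 0.289 and 0.535, beside a median of 0.142 over all tested genes. A fold change of at least 2 in either direction, which is 1 on the log2 scale, was reached by 128 called genes (0.542% of tested), 49 higher and 79 lower. The called log2 fold changes ran from -3.01 to 3.06. For 370 of the higher and 627 of the lower genes, the CPM values of all 4 PTB7-Th:IEICO-4F plants lay outside the range of all 8 FTAZ plants. Over all tested genes such separation was seen for 466 genes (1.97%) in the higher and 746 (3.16%) in the lower direction. With limma and a weight per group, which lets the spread differ between groups, 1080 genes were called. DESeq2's Wald test, which does not, called 2968. The number of calls in edgeR also depended on single plants. It was 973 without PTB7-Th:IEICO-4F replicate 3, 1234 without HC-FTAZ:PCBM replicate 4, and between 1311 and 1868 without any 1 of the other plants. A total of 748 genes, 315 higher and 433 lower, were called in the same direction whichever plant was left out.

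**Figure D2:**
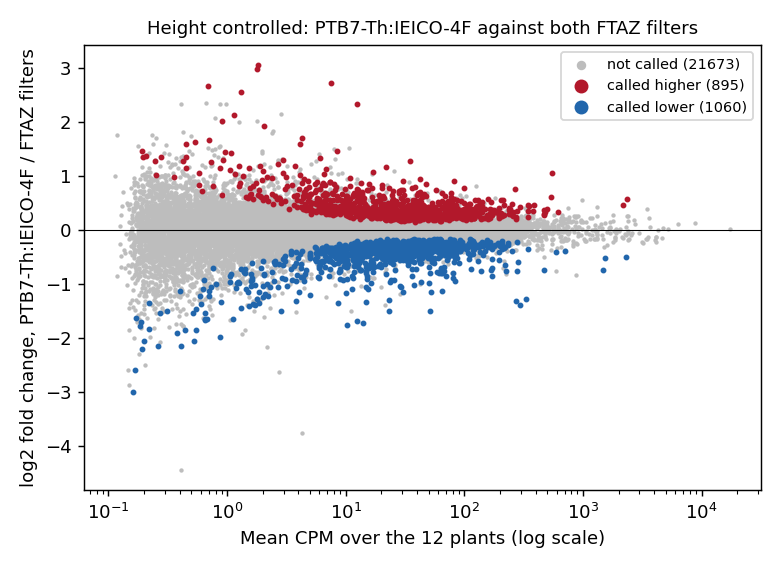
Log2 fold change of PTB7-Th:IEICO-4F over the mean of both FTAZ groups (y axis) against mean CPM of the 12 plants (x axis, log scale), each point 1 of 23628 tested genes. The 895 genes called higher (red) and 1060 called lower (blue) lie mostly within 1 log2 unit of 0, and 128 lie outside it.

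The 2 FTAZ groups were not told apart by edgeR. When HC-FTAZ:IT-M was set against HC-FTAZ:PCBM, 0 of 23628 genes (0%) passed an adjusted p of 0.05, with the lowest at 0.900. An unadjusted p under 0.05 was found for 857 genes, fewer than that threshold would pass on average if no gene differed. DESeq2's Wald test called 8 genes there and limma called 0. Taken alone, HC-FTAZ:IT-M differed from PTB7-Th:IEICO-4F in 781 genes (3.31% of tested), 269 of them higher (1.14%) and 512 lower (2.17%) behind PTB7-Th:IEICO-4F. HC-FTAZ:PCBM differed from it in 1235 genes (5.23%), 557 higher (2.36%) and 678 lower (2.87%). These 2 comparisons share the PTB7-Th:IEICO-4F plants, and whether their counts differ was not tested. Both counts moved by more than 1.5 times when some single plants were left out, down to 225 for HC-FTAZ:IT-M (without its replicate 2) and to 455 for HC-FTAZ:PCBM (without its replicate 4). All 895 higher genes were higher, and all 1060 lower genes lower, than in each FTAZ group. The contrast that chose them is the mean of these 2 comparisons, so the shared sign is largely set by the choice. The median log2 fold change of the higher genes was 0.346 against HC-FTAZ:IT-M and 0.397 against HC-FTAZ:PCBM. For the lower genes it was -0.378 and -0.382. Of the higher genes, 198 passed the threshold against both FTAZ groups taken singly and 321 against neither, and of the lower genes 392 and 310 did so.

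The files identify genes by locus number and do not pair them with product names, and the RefSeq gene table at hand carries none for the genes that moved. Pathways and leaf cell markers could therefore not be read: all 15 gene lists drawn up for light responses and leaf tissue, from chlorophyll-binding proteins to sesquiterpene lactone synthesis, matched 0 identifiers. The table gives enzyme synonyms for 2 tested genes, and neither was called. LOC111889525, listed as triosephosphate isomerase (an enzyme of glycolysis and of the Calvin cycle), had 438, 414, 363 and 319 CPM in the PTB7-Th:IEICO-4F plants. It had 379, 368, 410 and 418 CPM in HC-FTAZ:IT-M and 390, 403, 343 and 431 in HC-FTAZ:PCBM. The groups overlapped, at a log2 fold change of -0.03 (SE 0.09, edgeR adjusted p = 0.857), and the sign turned to 0.02 without PTB7-Th:IEICO-4F replicate 3 or 4. LOC111883376, listed as GS(1), the cytosolic glutamine synthetase that assimilates ammonium, had a mean of 356 ± 41.9 CPM (SD, n = 4) behind PTB7-Th:IEICO-4F. Its means were 326 ± 29.4 and 333 ± 29.1 CPM (SD, n = 4 each) behind FTAZ:IT-M and FTAZ:PCBM, with a log2 fold change of 0.11 (SE 0.07, edgeR adjusted p = 0.355).

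Single genes can be described by position and level. Among called genes with a mean of at least 1 CPM and no overlap between the 4 and the 8 plants, 966 in all (360 higher, 606 lower), the 2 largest rises and the 2 largest falls were taken. All positions are on the assembly Lsat_Salinas_v7, as the count files give them, and span the gene. The largest rise was that of LOC111884457, a protein-coding gene of 3 exons on the minus strand of scaffold NW_019680271.1, bases 264800 to 266276. It had 3.13, 1.35, 2.2 and 2.51 CPM in the PTB7-Th:IEICO-4F plants. In HC-FTAZ:IT-M it had 1.04, 0.441, 0.443 and 1.21 CPM, and in HC-FTAZ:PCBM 0.711, 0.0634, 0.228 and 0.375 CPM. The highest FTAZ plant came close to the lowest PTB7-Th:IEICO-4F plant, and 1 FTAZ:PCBM plant held 3 reads of the gene, at the floor. The log2 fold change was 2.14 (SE 0.42, edgeR adjusted p = 0.00934). Against FTAZ:PCBM alone it was 2.74 (edgeR adjusted p = 0.0134), and against FTAZ:IT-M alone 1.53, not past the threshold (edgeR adjusted p = 0.112). In PC the log2 fold change was 1.44 (SE 0.46, edgeR adjusted p = 0.0237). There the gene had 1.34 ± 0.813 CPM behind PTB7-Th:IEICO-4F and a like level under glass, 1.52 ± 1.08 CPM (SD, n = 4 each). Behind FTAZ:IT-M and FTAZ:PCBM it had 0.337 ± 0.191 and 0.636 ± 0.353 CPM in PC (SD, n = 4 each).

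LOC111900546 followed, a protein-coding gene of 6 exons on the minus strand of NW_019673459.1, bases 204095 to 207024. Its level was 16.9, 9.2, 22.6 and 9.78 CPM behind PTB7-Th:IEICO-4F, 5.88, 3.46, 5.21 and 8.86 behind FTAZ:IT-M, and 3.62, 5.14, 5.22 and 4.57 behind FTAZ:PCBM. The log2 fold change was 1.47 (SE 0.24, edgeR adjusted p = 0.00397). The PC plants, which had no part in choosing the gene, were also highest behind PTB7-Th:IEICO-4F: 40.1 ± 6.01 CPM behind PTB7-Th:IEICO-4F against 12 ± 2.74 behind FTAZ:IT-M and 15.8 ± 2.24 behind FTAZ:PCBM (SD, n = 4 each), a log2 fold change of 1.46 (SE 0.2, edgeR adjusted p = 0.000102). The difference between the HC and PC contrasts was 0.02 (SE 0.3, edgeR adjusted p = 0.969). Glass plants had 5.33 ± 1.48 CPM in HC, near the FTAZ groups, and 28.6 ± 5.84 CPM in PC (SD, n = 4 each). In PC, glass thus lay above both FTAZ groups, and its highest plant (36.5 CPM) reached the PTB7-Th:IEICO-4F range (35.7 to 48.9 CPM).

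Of the falls, LOC111916162 (6 exons, minus strand, NW_019677089.1, bases 303504 to 306130) had 1.68, 1.48, 0.507 and 1.33 CPM behind PTB7-Th:IEICO-4F. Behind FTAZ:IT-M it had 2.63, 8.69, 2.68 and 2.71 CPM, and behind FTAZ:PCBM 4.43, 2.54, 1.82 and 3.38. One FTAZ:IT-M plant, replicate 2, stood far above the rest of its group. The log2 fold change was -1.51 (SE 0.42, edgeR adjusted p = 0.045), and the adjusted p ranged from 0.0019 to 0.155 over 21 alternatives, with the call kept in 13. It was 0.155 with limma and between 0.0641 and 0.114 when any 1 of the PTB7-Th:IEICO-4F plants was left out, and it was 0.0811, 0.0628 and 0.0788 without FTAZ:PCBM replicates 1, 2 and 4. Against neither FTAZ filter alone did the gene pass the threshold. The log2 fold change was -1.75 against FTAZ:IT-M (edgeR adjusted p = 0.0605) and -1.26 against FTAZ:PCBM (edgeR adjusted p = 0.136). In PC the log2 fold change of this gene was -1.5 (SE 0.44, edgeR adjusted p = 0.015).

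LOC111905546 (1 exon of 546 bp, plus strand, NW_019674407.1, bases 839603 to 840148) had 8.69, 16.4, 7.54 and 8.74 CPM behind PTB7-Th:IEICO-4F. It had 28, 20.8, 32.8 and 21.1 CPM behind FTAZ:IT-M and 30.6, 30.5, 31.2 and 43.6 behind FTAZ:PCBM, with a log2 fold change of -1.5 (SE 0.22, edgeR adjusted p = 0.0024). It overlaps LOC111905545 on the other strand, so its counts are uncertain. In PC its log2 fold change was 0.47 (SE 0.23, edgeR adjusted p = 0.126), and the contrast differed between HC and PC by -1.97 (SE 0.33, edgeR adjusted p = 0.000736). This difference contains the HC contrast by which the gene was chosen, so nothing is read from its p-value.

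A further 3 genes were singled out after their values were seen, 1 for its p-value and 2 for their size of change among abundant genes. LOC111891058 (5 exons, minus strand, NW_019681808.1, bases 3795327 to 3797938) had the lowest adjusted p of all. It had 132, 159, 125 and 124 CPM behind PTB7-Th:IEICO-4F, 290, 266, 339 and 272 behind FTAZ:IT-M, and 361, 352, 416 and 426 behind FTAZ:PCBM. The log2 fold change was -1.32 (SE 0.1, edgeR adjusted p = 0.000118). HC glass plants spanned 134 to 329 CPM, from the PTB7-Th:IEICO-4F range into that of FTAZ:IT-M. In PC the gene had 222 ± 59.4 CPM behind PTB7-Th:IEICO-4F, 143 ± 40.1 behind FTAZ:IT-M and 180 ± 37.3 behind FTAZ:PCBM (SD, n = 4 each). Its contrast differed between HC and PC by -1.68 (SE 0.23, edgeR adjusted p = 0.000207). This difference contains the HC contrast whose p-value chose the gene, so nothing is read from its own p-value.

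LOC111882643 (13 exons, minus strand, NW_019679917.1, bases 257105 to 264333) showed the largest fall among genes with a mean of at least 100 CPM. It had 124, 158, 155 and 125 CPM behind PTB7-Th:IEICO-4F, 340, 468, 272 and 292 behind FTAZ:IT-M, and 369, 437, 414 and 383 behind FTAZ:PCBM, a log2 fold change of -1.39 (SE 0.14, edgeR adjusted p = 0.000298). HC glass plants had 298 ± 24.9 CPM and PC glass plants 92.1 ± 15.2 CPM (SD, n = 4 each). In PC the log2 fold change was -0.57 (SE 0.15, edgeR adjusted p = 0.00768). There the gene had 88.7 ± 12.8 CPM behind PTB7-Th:IEICO-4F, near the 87.3 ± 15.9 CPM behind FTAZ:IT-M (SD, n = 4 each). Only FTAZ:PCBM stood higher in PC, at 177 ± 41 CPM (SD, n = 4).

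LOC111904766 (9 exons, minus strand, NW_019674277.1, bases 77912 to 83417) showed the largest rise at that level. It had 733, 831, 948 and 829 CPM behind PTB7-Th:IEICO-4F, 435, 294, 563 and 541 behind FTAZ:IT-M, and 318, 407, 308 and 365 behind FTAZ:PCBM, a log2 fold change of 1.07 (SE 0.15, edgeR adjusted p = 0.00215). In PC the order turned: the log2 fold change was -0.57 (SE 0.15, edgeR adjusted p = 0.0082), and the contrasts differed by 1.64 (SE 0.21, edgeR adjusted p = 8.54e-05). The latter difference contains the HC contrast by which the gene was chosen, so nothing is read from its p-value. Of the 7 called genes described so far, all but LOC111916162 were called under each alternative that tested them. The limit of 5 CPM on the mean left LOC111884457 and LOC111916162 untested.

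**Figure D3:**
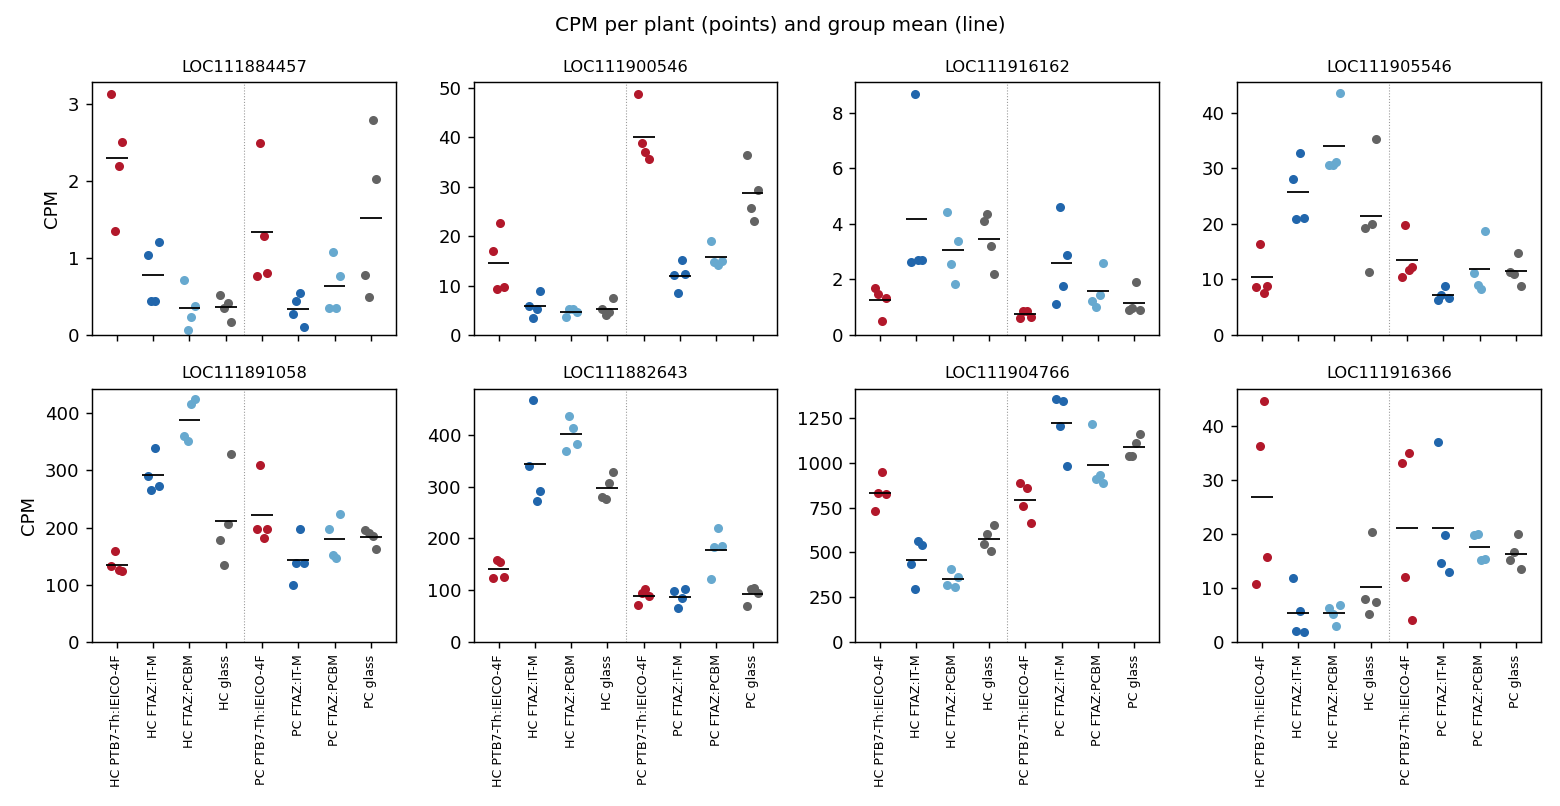
CPM per plant (y axis, linear, from 0) of 8 called genes in the 8 groups (x axis, HC left and PC right of the dotted line), points for plants and lines for means. LOC111900546 is high behind PTB7-Th:IEICO-4F in HC (9.2 to 22.6 CPM) and PC (35.7 to 48.9 CPM), while LOC111904766 is higher there in HC and lower in PC than behind the FTAZ filters.

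Most neighbours of called genes were not called themselves. Of 21600 pairs of tested genes that neighbour each other on a scaffold, 175 had both members called, 113 with the same and 62 with opposite direction. A neighbour of a called gene was itself called in 9.78% of cases, beside 8.27% of all tested genes. There were 11 runs of 3 neighbours called in 1 direction, 8 higher and 3 lower, and no longer run. How many such runs, or pairs with 1 direction, would arise by chance was not computed, so clustering was not tested. Both runs described next were chosen after their values were seen. On NW_019677106.1, between bases 3014148 and 3169339, LOC111916366, LOC111916368 and LOC111916369 had log2 fold changes of 2.33, 1.16 and 0.75 (edgeR adjusted p = 0.00901, 0.0173 and 0.00937). The first of them had 10.7, 36.3, 44.7 and 15.7 CPM behind PTB7-Th:IEICO-4F, 11.9, 2.02, 5.63 and 1.83 behind FTAZ:IT-M, and 6.27, 5.2, 3.01 and 6.86 behind FTAZ:PCBM. Its groups overlap by 1 FTAZ:IT-M plant, and its PTB7-Th:IEICO-4F plants differ among themselves by several fold. For LOC111916368 and LOC111916369 the PTB7-Th:IEICO-4F and FTAZ plants overlap as well. The call of LOC111916368, at a mean of 0.865 CPM, was lost without PTB7-Th:IEICO-4F replicate 2 (adjusted p = 0.0527) or 3 (0.0514), over a range of 0.00127 to 0.0527 in edgeR, DESeq2 and limma fits. On NW_019676761.1, between bases 1890497 and 2030531, LOC111914470, LOC111914471 and LOC111914472 had log2 fold changes of -1.34, -0.45 and -0.72 (edgeR adjusted p = 0.00702, 0.0495 and 0.017). The PTB7-Th:IEICO-4F and FTAZ plants overlap for LOC111914471. Its call was kept in 6 of 22 alternatives, with adjusted p from 0.0103 to 0.115. It was lost without any 1 of the PTB7-Th:IEICO-4F plants, without FTAZ:IT-M replicate 2, 3 or 4 and without FTAZ:PCBM replicate 1, 2 or 4, where the adjusted p was between 0.0582 and 0.115. The call of LOC111914472 was kept in 19 of 22, with adjusted p from 0.00043 to 0.0569. It was lost with limma (0.0513), without PTB7-Th:IEICO-4F replicate 3 (0.0569) and under the limit of 1 on the log2 fold change.

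Calls were more frequent among genes with more reads. In 5 classes of equal size by mean CPM, from lowest to highest, 2.14%, 5.06%, 9.16%, 13.1% and 12% of tested genes were called. The lowest class ended at 1.74 CPM and the highest began at 44.5 CPM. Across 4 classes of exonic length the share of both directions together ran only from 7.77% to 8.96%. The directions were less even: the shortest class, up to 1100 bp, held 166 higher and 334 lower calls. From shorter to longer, the following classes held 244, 280 and 205 higher beside 223, 249 and 254 lower calls. Of 21113 protein-coding genes 1891 were called (8.96%), and of 1599 long non-coding RNA genes 43 (2.69%). None of 106 small nucleolar RNA genes was called, in libraries made after poly-A selection.

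The higher and the lower genes differed in gene structure, which the test did not use. Of the 895 higher genes, 190 (21.2%) have a single exon, and of the 1060 lower genes 72 (6.79%), beside 3040 of all tested genes (12.9%). The median number of exons was 3 in the higher genes, 6 in the lower genes and 4 over all. The share of single-exon genes was also higher in the higher than in the tested genes, and lower in the lower genes, within each class of expression level. In the middle class, from 7.65 to 19.5 CPM, single-exon genes were 30.5% of the higher, 7.03% of the lower and 10.6% of the tested genes. In the top class they were 11.7%, 1.77% and 7.55%. With other fits and with single plants left out, the share stayed between 16.4% and 27.9% in the higher and between 5.99% and 9.4% in the lower genes. The single-exon genes as a whole had a median log2 fold change of 0.0702, and the other genes of -0.00732. They took up 9.04% ± 0.744 of the counts of tested genes behind PTB7-Th:IEICO-4F, 9.02% ± 0.425 behind FTAZ:IT-M and 9.10% ± 0.302 behind FTAZ:PCBM (SD, n = 4 each). In PC the same contrast had the opposite order, with 9.1% single-exon genes among its higher and 14.7% among its lower calls. No test was made of these shares.

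For most called genes the HC glass plants lay between the filters and nearer to FTAZ. The HC glass mean lay between the PTB7-Th:IEICO-4F mean and the FTAZ mean for 760 of the 895 higher and 776 of the 1060 lower genes. It was nearer to the FTAZ mean for 637 (71.2%) of the higher and 937 (88.4%) of the lower genes. As a level over the set, each plant's median log2 difference from the HC glass mean was taken over the higher genes. It was 0.229 ± 0.074 behind PTB7-Th:IEICO-4F, -0.111 ± 0.067 behind FTAZ:IT-M and -0.121 ± 0.057 behind FTAZ:PCBM (SD, n = 4 each). Over the lower genes it was -0.298 ± 0.075, 0.049 ± 0.051 and 0.099 ± 0.043 (SD, n = 4 each). The genes were chosen on these 12 plants, so these separations are a description. The same choice set the filter means apart, which favours a glass mean between them. How often glass lies there over all tested genes was not computed, so nothing more is read from its position.

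In the plants with adjusted light, the same genes had filter differences of both signs. In PC, PTB7-Th:IEICO-4F differed from both FTAZ groups in 6679 of 24281 tested genes (27.5%), 2900 of them higher (11.9%) and 3779 lower (15.6%). Of the 895 genes higher in HC, 454 had a positive log2 fold change in PC, with a median of 0.00418, and 289 (32.3%) were called, 139 higher and 150 lower. Of the 1060 genes lower in HC, 542 were negative in PC, with a median of -0.00734, and 300 (28.3%) were called, 103 higher and 197 lower. Over the 23628 genes tested in HC, 28% were called in PC, so the members' shares lie near the background. These values turned on single HC plants. Without PTB7-Th:IEICO-4F replicate 3, 40.6% of the higher genes had the HC sign in PC, with a median of -0.0618, and 42.1% of the lower genes, with a median of 0.038. Without replicate 4 the shares were 61.1% and 57.3%, with medians of 0.0897 and -0.0501. All other alternatives gave shares between these bounds. The 589 genes called in both experiments were 30.1% of the HC and 8.82% of the PC calls, and 336 of them had the same direction and 253 the opposite one. Across the 23628 genes, which are not independent replicates, the HC and PC log2 fold changes had a Pearson r of 0.273 and a Spearman rho of 0.172. Tested directly, the contrast differed between HC and PC in 3946 of 24281 genes (16.3%), 2378 (9.79%) with a more positive and 1568 (6.46%) with a more negative value in HC. Since this difference contains the HC contrast that chose the members, nothing is read from the members' counts in it.

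The called genes also differed between the glass plants of the 2 experiments, a comparison that shares no plant with that of the filters. Between PC glass and HC glass, 8015 of 23325 genes (34.4%) were called, 3903 higher (16.7%) and 4112 lower (17.6%) in PC. Of the higher genes, 894 were tested there. A total of 804 (89.9%) were higher in PC glass than in HC glass, 572 of them by the test and 5 called the other way. Their median log2 fold change was 0.362. Of the 1052 lower genes tested there, 904 (85.9%) were lower in PC glass, 446 of them by the test and 13 called the other way, with a median of -0.222. Over all 23183 genes tested in both comparisons, 48.6% were higher in PC glass and the median was -0.0107. The share with the matching sign stayed between 83.3% and 95.5% for the higher and between 84.3% and 92.1% for the lower genes when the genes were called by the other fits or with 1 plant left out. Without PTB7-Th:IEICO-4F replicate 3 it was 87.7% and 84.3%.

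Across those 23183 genes, the log2 fold changes of the filter and of the glass comparison had a Pearson r of 0.502 and a Spearman rho of 0.489. Genes higher behind PTB7-Th:IEICO-4F than behind FTAZ in HC were thus, for the most part, also higher under glass with adjusted than with unadjusted intensity. The set level of the higher genes showed the same split in all PC groups. It was 0.36 ± 0.051 in PC glass, 0.32 ± 0.073 behind FTAZ:IT-M, 0.271 ± 0.065 behind FTAZ:PCBM and 0.384 ± 0.047 behind PTB7-Th:IEICO-4F (SD, n = 4 each). For the lower genes it was -0.203 ± 0.067, -0.289 ± 0.106, -0.174 ± 0.11 and -0.139 ± 0.028 in the same order. Each PC plant lay above every HC glass and FTAZ plant in the higher set. In the lower set 15 of the 16 PC plants lay below every HC glass plant, and the exception, at -0.081, was an FTAZ:PCBM plant. Intensity and any other condition that differed between the experiments go together in HC and PC and cannot be told apart. Whether box was among them is not in the labels.

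**Figure D4:**
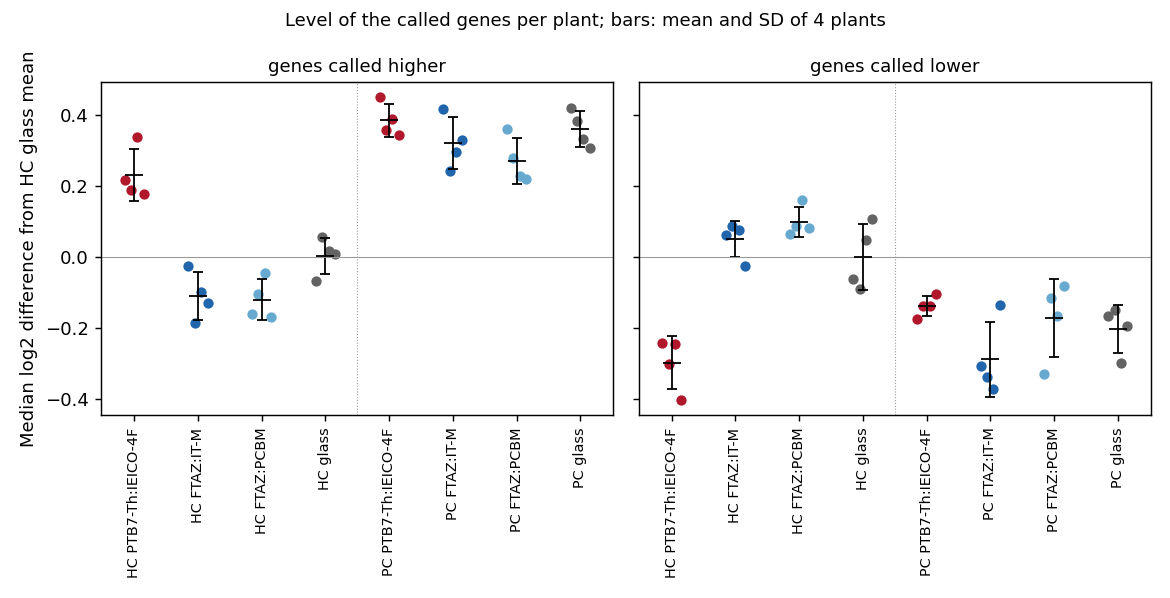
Median log2 difference from the HC glass mean (y axis) over the 895 genes called higher (left) and 1060 called lower (right) in each of the 32 plants (points) by group (x axis), with mean and SD of 4 plants. In HC the PTB7-Th:IEICO-4F plants (0.176 to 0.337 and -0.403 to -0.244) stand apart from FTAZ and glass, and PC plants lie on the same side as they do in both sets.

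**Figure D5:**
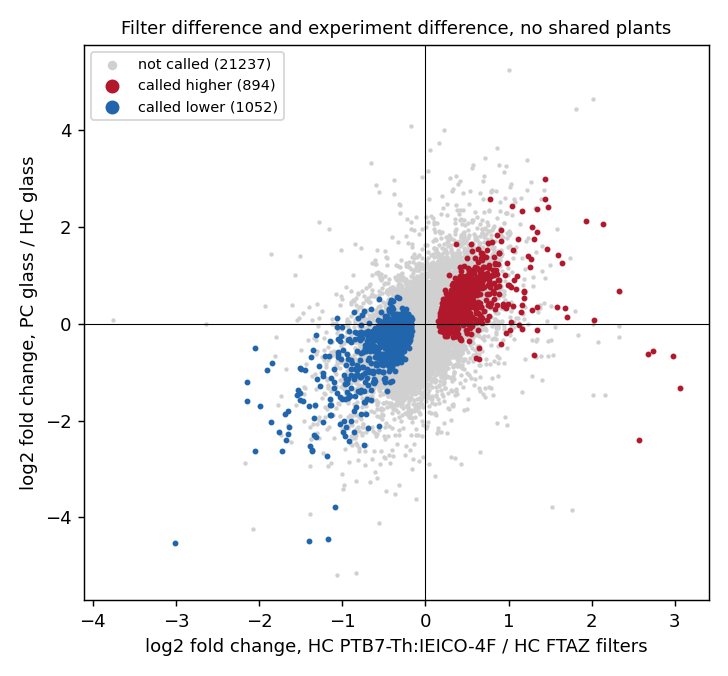
Log2 fold change of PC glass over HC glass (y axis) against that of PTB7-Th:IEICO-4F over both FTAZ filters in HC (x axis) for 23183 genes, with no plant in both. Genes called higher (red) lie mostly above 0 on the y axis (804 of 894) and genes called lower (blue) mostly below it (904 of 1052).

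Of 5 measures per library, none passed an adjusted p of 0.05 between the PTB7-Th:IEICO-4F and FTAZ plants. The number of tested genes with a read was 23579.5 ± 7.05 (SD, n = 4) and 23595.5 ± 9.77 (SD, n = 8), with p = 0.0162 in a two-sided exact permutation test over all splits of the 12 plants and 0.081 after Benjamini-Hochberg adjustment. The total count (exact permutation p = 0.83) and the share of the 10 largest genes (6.57% against 6.44%, exact permutation p = 0.473) gave larger p-values. So did the slope of log2 CPM on exonic length (exact permutation p = 0.477). Plastid rRNA and tRNA took up only 0.00594% against 0.0045% of the counts (exact permutation p = 0.38).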

How the data were processed

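Per the labels' protocols, leaf poly-A RNA of 32 plants was sequenced as a pool over 3 lanes. The authors deposited raw counts per gene from featureCounts 2.0.1, exons by gene on the RefSeq annotation of Lsat_Salinas_v7, per the file headers, which show no strand, pair or multi-mapping option. Genes with near-identical copies are then undercounted. FastQC, HISAT2 and DESeq2 are named in the submitters' processing notes, and trimming is not given in the sources used here. Counts were used as deposited.

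The 12 HC filter plants were filtered with filterByExpr (minimum count 10, minimum total 15), scaled by TMM and tested with edgeR 4.0.16 (quasi-likelihood F-test, limma 3.58.1, R 4.3.3) with a mean per group. The contrast was HC-PTB7-Th:IEICO-4F minus the mean of both FTAZ groups. The p-values were adjusted by Benjamini-Hochberg over all tested genes and called under 0.05. Standard errors were taken from the log2 fold change and its F statistic. The PC contrast and its difference from HC used the 24 filter plants, and the glass comparison the 8 glass plants. The members, gene lists and tests were chosen with earlier results of these data known, and the PC and glass comparisons were added after seeing the data. Log2 CPM used a prior count of 2, and set levels a pseudocount of 0.5 CPM. Genes named by rule are the 2 largest rises and falls among called genes of at least 1 mean CPM without overlap.

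Alternatives were DESeq2 size factors, DESeq2 1.42.0, limma with a weight per group, no filter, a mean CPM of at least 5, all 32 samples in the model, the replicate number as a block, a log2 fold change of at least 1, a length offset (lowess span 0.5), the FTAZ plants as 1 group, and each plant left out. The methods were run on simulated counts with known changes. Those counts had the same spread in every group, so the run does not check unequal spread. Of the identifiers, 37879 matched a RefSeq table of Lsat_Salinas_v11, used for biotypes and synonyms only. Sequences are not used here. Python 3.11.15, pandas 2.3.3, scipy 1.17.1 and matplotlib 3.10.9 were used.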

Additional observations from a re-analysis of the deposited data

Results flagged for a closer look

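The contrast of PTB7-Th:IEICO-4F against both FTAZ filters differed between HC and PC in 3946 genes (edgeR, 24 plants). Among the named genes the difference, HC minus PC on the log2 scale, was -1.97 for LOC111905546, -1.68 for LOC111891058, -0.82 for LOC111882643, 1.64 for LOC111904766, 2.29 for LOC111916366 and 1.59 for LOC111916368. LOC111904766 had opposite signs in HC and PC, past the threshold in both. These genes were named for their HC values, which the difference contains.

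Single plants stood far from the other 3 of their group in 4 of 60 combinations of a named gene or library measure with a group, where about 3 are expected by chance at 1 in 20. HC-FTAZ:IT-M replicate 1 had a read for 23600 of the tested genes, against 23585 to 23586 in the rest of its group. LOC111905546 had 43.6 CPM in HC-FTAZ:PCBM replicate 4 and 16.4 CPM in HC-PTB7-Th:IEICO-4F replicate 2. LOC111916162 had 8.69 CPM in HC-FTAZ:IT-M replicate 2.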

How the results depend on the processing

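For PTB7-Th:IEICO-4F against both FTAZ filters the count of 1955 calls was 2968 with DESeq2's Wald test, 1080 with limma and a weight per group, and 128 at an absolute log2 fold change of at least 1. The other alternatives gave 1498 to 2900, the latter with all 32 samples, where higher calls (1590) outnumbered lower ones (1310). Leaving out 1 plant gave 973 to 1868. All alternatives together, plants left out included, kept 684 calls (35.0%), 295 higher and 389 lower.

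Against FTAZ:IT-M alone (781) the count was 1737 with DESeq2, 1423 with all samples, 317 with limma and 59 at the fold limit. Leaving out 1 plant gave 225 to 672, with 291 without PTB7-Th:IEICO-4F replicate 3, 481, 225 and 350 without FTAZ:IT-M replicates 1, 2 and 3, and 452, 478 and 483 without FTAZ:PCBM replicates 1, 2 and 4. Against FTAZ:PCBM alone (1235) it was 2241, 2013 and 89 with DESeq2, all samples and the fold limit. Leaving out 1 plant gave 455 to 1229, with 661 without PTB7-Th:IEICO-4F replicate 3 and 519, 635, 780 and 455 without FTAZ:PCBM replicates 1, 2, 3 and 4. Between the FTAZ groups DESeq2 called 8, and leaving out 1 plant gave 0 to 0.

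The difference between HC and PC (3946) fell to 436 at the fold limit and ran from 2456 to 5071 with 1 plant left out, at 2456 without HC and 2484 without PC PTB7-Th:IEICO-4F replicate 4. The PC contrast (6679) gave 856 at the fold limit and 4250 to 7748 with 1 plant left out, at 4418 and 4250 without PTB7-Th:IEICO-4F replicates 1 and 4. The glass comparison (8015) gave 1573 and 6392 to 8214. The fold limit lowers counts by its construction, and for the other settings the cause was not tested.

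With the replicate number as a block, 1498 genes were called, and 460, 902, 0, 3739, 6503 and 6728 in the further comparisons in the order above. The numbers showed no clear pairing of the plants. Deviations of same-numbered plants correlated above 0.1 in 2 of 12 pairs (mean -7e-04), and 4 of 12 plants matched best with their own number. Both pairs joined PTB7-Th:IEICO-4F and FTAZ:PCBM, at 0.1629 for replicate 1 and 0.3029 for replicate 3. With 4 plants per group this check cannot exclude a condition shared by number.

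The log2 fold change of LOC111889525 turned to 0.02 without PTB7-Th:IEICO-4F replicate 3 or 4 and ran from -0.08 to 0.02. The difference in genes detected was -152 (exact permutation p = 0.121) over all genes with a read, and -18.5 to -12.8 with 1 plant left out. The difference in total count ran from -195000 to 103000, in the slope on length from -0.00305 to 0.0294, and in the plastid share from -0.000221 to 0.00255 percentage points. Depth limits what can be said of genes near the floor of 0.0621 to 0.0634 CPM.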
